A study of Mus musculus with 8 samples.

Results

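The genes examined here encode the machinery that releases insulin granules: Snap25, Stx1a, Vamp2, Syt4, Syt7, Rims2, Unc13a, Rab3a and Rab27a. They were chosen by name, with earlier results of these data known, and are 9 of the 21883 protein-coding genes of the mouse annotation used. For each gene the window was the gene body in GRCm38 (mm10) with 25 kb on both sides, and all peaks of open chromatin in it were taken from 2 deposited lists. These windows held 101 of the 100099 peaks found with the empty vector and 134 of the 128538 peaks found with Klf4.

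The samples were MIN6 cells, a mouse insulinoma cell line that secretes insulin and stands in for beta cells, labelled WT. They had been transfected for 48 hours with the pcDNA 3 empty vector or with pGloMyc-Klf4, which expresses the zinc finger transcription factor Klf4, and assayed by ATAC-seq, in which a transposase cuts open chromatin. The labels give genomic DNA as the material and an ATAC-seq kit, but also name a kit for mRNA-seq libraries, and how that kit was used is not given in the sources used here. There were 4 libraries for each plasmid, but the values are 1 merged list for each. No measure below therefore has a spread between replicates, no test between the plasmids was possible, and the read depth is unknown. The plasmids differ in name as well as in the insert, so an effect of Klf4 and one of the plasmid cannot be told apart. In pooled material, a site open in more cells and a site more open in each cell cannot be told apart either.

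Insulin is stored in granules that fuse with the plasma membrane when calcium enters the cell. Fusion is driven by SNARE proteins, a syntaxin and SNAP-25 on the plasma membrane and a VAMP on the granule, which zip into a bundle and pull the membranes together. Rab GTPases on the granule help to bring it to the membrane, RIM and Munc13 proteins prepare it for fusion, and synaptotagmins bind calcium and trigger release. The same proteins release transmitter at nerve endings.

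As a check of the cell type, 7 of 8 beta cell markers (Ins1, Ins2, Pdx1, Nkx6-1, Mafa, Iapp and G6pc2) had a peak within 1 kb of their start in both lists, or of either end where the tables give no start. The exception, Slc2a2, had a peak in its body in both. Of 12 markers of other pancreatic, immune and stromal cells, the empty vector list had such a peak at 4 and the Klf4 list at 7, and the part of this in the results was not tested. Gcg, Col1a1, Krt7 and Cela1 had such a peak in both lists, and Hhex, Ptf1a and Krt19 in the Klf4 list alone. Ptprc and Pdgfra had a peak in the body alone in both lists. Sst, Cpa1 and Amy2b had no peak there or in the body in either list. How many of all genes have such a peak was not counted. The body of the transfected gene held the strongest peak of the Klf4 list (−log10 q 17134), and its best peak in the empty vector list had a −log10 q of 32.2. Peak lists cannot tell the gene from the Klf4 insert of the plasmid, so that strongest peak is not read as opening of the gene. Within 1 kb of the Klf4 start there were 2 peaks with the empty vector and 0 with Klf4. Here q is the authors' false discovery rate for a peak, and rank 1 is the peak with the highest −log10 q of its own list. Values of q from the 2 lists stand side by side below to describe each peak in its own list, and no change is read from them.

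Each of the 9 genes had an open region over one end of its body, and each of these regions was found with both plasmids. How many of all protein-coding genes have one was not counted, so this is not read as particular to the 9. The strongest was that of Rab3a, 1093 bp wide with a −log10 q of 119 with the empty vector and 1005 bp with 88.9 with Klf4. The weakest was that of Snap25, 2499 bp with a −log10 q of 24.1 and 2509 bp with 29.97. By rank these end peaks lay within the strongest 4.47 to 24.97% of the empty vector list and the strongest 4.13 to 15.0% of the Klf4 list. In Stx1a, Unc13a, Rab3a and Rab27a, whose start sites are given by the promoter table, the end in question was the start. For the other genes the tables give no strand, so the end is named by its coordinate: it was the lower one in Snap25, Vamp2, Syt7 and Rims2 and the higher one in Syt4.

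The promoters of the genes with an entry are shown because these start peaks lie over them, and the pair of Rab27a starts because 1 of them lies under no peak. RefSeq's table (GRCm38.p6) had 6 entries for 4 of the 9 genes, each from 250 bases before to 50 after a start. Capitals mark every match, on either strand, to one of 6 motifs described after the sequences, and overlapping matches run together.
Stx1a, chr5:135023232-135023531, plus strand: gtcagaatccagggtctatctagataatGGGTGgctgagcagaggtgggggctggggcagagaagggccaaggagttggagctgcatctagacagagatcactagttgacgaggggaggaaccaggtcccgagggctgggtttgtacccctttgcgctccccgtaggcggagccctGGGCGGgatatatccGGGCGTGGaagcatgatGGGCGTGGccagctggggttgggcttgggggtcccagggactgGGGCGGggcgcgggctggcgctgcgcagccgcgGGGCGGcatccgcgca
Unc13a, chr8:71671708-71672007, minus strand: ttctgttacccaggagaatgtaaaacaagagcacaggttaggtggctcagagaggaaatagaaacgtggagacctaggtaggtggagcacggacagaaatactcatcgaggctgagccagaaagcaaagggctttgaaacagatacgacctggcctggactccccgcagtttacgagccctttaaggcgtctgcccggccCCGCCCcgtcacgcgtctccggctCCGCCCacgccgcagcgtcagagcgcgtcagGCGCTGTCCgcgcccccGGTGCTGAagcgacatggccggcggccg
Rab3a, upstream start, chr8:70754453-70754752, plus strand: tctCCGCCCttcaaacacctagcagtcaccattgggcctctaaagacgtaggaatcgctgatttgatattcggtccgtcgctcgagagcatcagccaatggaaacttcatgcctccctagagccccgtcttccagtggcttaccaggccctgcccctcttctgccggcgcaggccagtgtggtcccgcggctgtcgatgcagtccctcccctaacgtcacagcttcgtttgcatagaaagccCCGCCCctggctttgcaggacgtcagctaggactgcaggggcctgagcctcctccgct
Rab27a, upstream start, chr9:73044560-73044859, plus strand: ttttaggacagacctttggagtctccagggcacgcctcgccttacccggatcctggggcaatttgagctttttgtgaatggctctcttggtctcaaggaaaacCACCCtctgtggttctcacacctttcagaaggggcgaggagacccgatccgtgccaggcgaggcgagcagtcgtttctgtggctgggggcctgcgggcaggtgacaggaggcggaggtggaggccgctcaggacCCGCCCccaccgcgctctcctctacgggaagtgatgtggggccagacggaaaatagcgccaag
Rab27a, downstream start, chr9:73063898-73064197, plus strand: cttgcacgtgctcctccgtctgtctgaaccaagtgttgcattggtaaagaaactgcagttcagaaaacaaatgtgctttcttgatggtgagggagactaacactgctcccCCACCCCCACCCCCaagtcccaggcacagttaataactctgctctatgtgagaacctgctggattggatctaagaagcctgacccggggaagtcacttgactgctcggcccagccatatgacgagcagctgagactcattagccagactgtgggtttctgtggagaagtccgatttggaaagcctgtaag

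CACCC is the core of many Klf sites, and GGGNGTGG is a longer form of the site that Klf4 prefers. The GC box, bound by Sp and Klf proteins, was searched as GGGCGG. The Stx1a promoter had 1 match to the core, 2 to the longer form and 3 to the GC box. No 2 of these matches overlapped there. In Unc13a and at the upstream start of Rab3a there were 2 matches to the GC box and none to the Klf core or the longer form. The upstream start of Rab27a had 1 match to the core and 1 to the GC box. Its downstream start had 2 matches to the core and 2 to the longer form, which overlap each other, and the downstream start of Rab3a, not printed, had 4 to the core. Such matches are common: of all 32851 promoters in the table, 57.5% held the core, 17.6% the longer form and 35.7% the GC box. The cyclic AMP response element TGACGTCA, held by 1.79% of promoters, was not matched in these 6.

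TCAGCACC is one arm of the site of REST, a repressor of neuronal genes, and GGACAGNGC the other. The Unc13a promoter held both on the same strand, 8 bases apart, at bases 256 to 280 of the printed sequence, where the start is base 251. Of all promoters 1.65% held TCAGCACC, 1.91% held GGACAGNGC and 16 of 32851 (0.0487%) held both. GGACAGNGC was searched after the sequence had been seen. A match says that the letters are there and not that a factor binds.

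The upstream promoters of Stx1a, Rab3a and Rab27a lay wholly under a peak in both lists (300 of 300 bases). That of Unc13a was covered over 300 bases with the empty vector and 236 with Klf4, where the peak ended closer to the start. No base of the downstream Rab27a promoter lay under a peak, and the nearest peak was 2758 bp (empty vector) and 2762 bp (Klf4) from that start. The lists thus marked the same Rab27a start.

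Over whole windows, peaks of the empty vector list covered 82186 bp and those of the Klf4 list 114247 bp, a ratio of 1.39, against 1.28 over all peaks of the main chromosomes. Of the 32061 bp that separate these sums, 30363 bp lay at Unc13a, Syt7, Stx1a and Rab3a and 1698 bp at the other 5 genes together. The difference in each gene is given as log2((Klf4 bp + 500) / (empty vector bp + 500)), called the log2 ratio. It was above 0 in 7 of 9 genes and in 67.8% of all protein-coding genes. Its median was 0.20 over the 9 genes and 0.21 over all genes, among them genes with no peak in either list. With flanks of 50 kb the medians were 0.12 and 0.26, and with 10 kb 0.13 and 0.13. Over the gene body alone they were 0.12 and 0.02. Without the added bp they were 0.21 and 0.30, over genes with a peak in the empty vector list. Which median was higher thus depended on the setting.

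**Figure D1:**
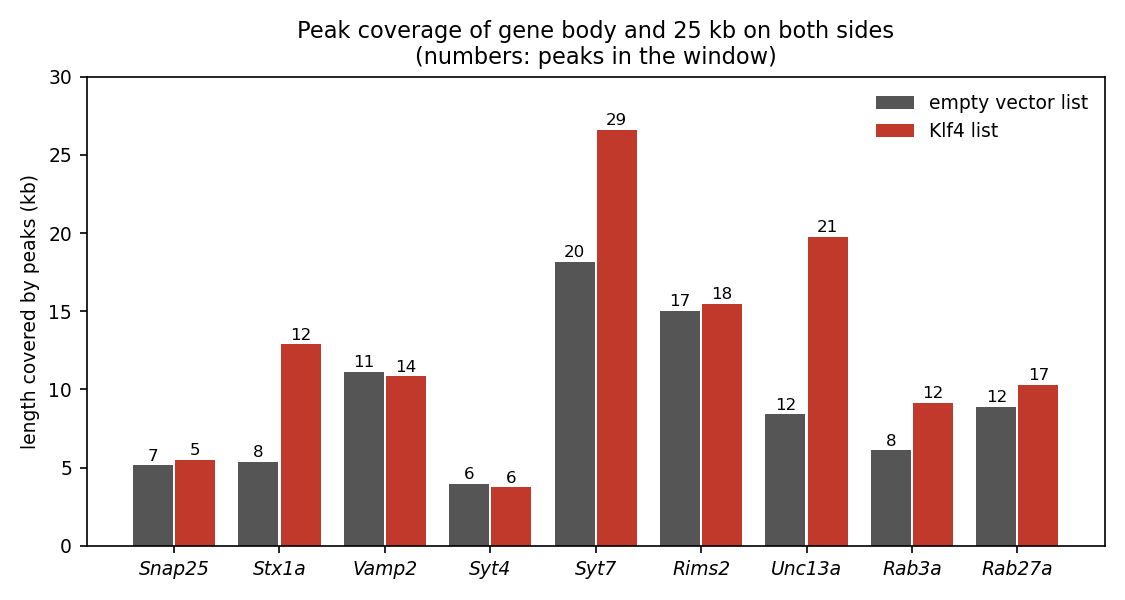
Length covered by peaks (kb) over each gene and its flanks of 25 kb, with the empty vector (grey) and with Klf4 (red), and the number of peaks above each bar. There is 1 value per bar and no error bar. Stx1a went from 5352 to 12873 bp and Unc13a from 8412 to 19767 bp, while Snap25, Vamp2, Syt4 and Rims2 differed by less than 500 bp.

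With a limit of 1.5-fold on this scale, 2 of 9 genes (Stx1a and Unc13a) were covered more with Klf4, against 23.0% of all protein-coding genes. None of the 9 was covered less by that limit, against 1.54% of all genes. Syt7 and Rab3a lay just inside the limit of 0.58, at log2 ratios of 0.54 and 0.55. Without the 500 bp added to both lengths, Rab3a was at 1.502-fold, just past it, and Syt7 at 1.46-fold, so that 3 of 9 genes were past the limit, against 28.8% of the 18837 genes with a peak in the empty vector list. Peak number was higher with Klf4 in 7 genes (59.5% of all genes), equal in Syt4 (28.7%) and lower in Snap25 (11.8%). The counts past 1.5-fold lay near the shares of all genes.

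A Klf4 peak was called gained when no empty vector peak overlapped it by 1 bp or more, an empty vector peak lost in the opposite case, and the rest matched. Gained peaks were 47 of 134 (35.1%, Wilson 95% interval 27.5 to 43.5%), against 36.7% of the whole Klf4 list. Lost peaks were 15 of 101 (14.9%, interval 9.21 to 23.1%), against 18.8% of the whole empty vector list. These intervals hold counting error alone, and peaks close together are not independent. All 9 genes had a gained peak (72.3% of all genes had one), and 6 had a lost peak (49.7% of all genes), the exceptions being Vamp2, Rab3a and Rab27a. These shares are not quite alike, since a window with more peaks can hold one more readily. The median over all genes was 5 empty vector and 7 Klf4 peaks, and most of the 9 windows held more.

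In the windows, gained peaks had a median −log10 q of 6.65 and matched Klf4 peaks 18.7, and the median widths were 455 and 835 bp. The whole Klf4 list had the same order, with a median −log10 q of 4.75 for gained and 10.8 for matched peaks and widths of 355 and 631 bp. None of the 47 reached a −log10 q of 20, which 42 of 87 matched peaks did. The median −log10 q and width of gained peaks here were thus above those of all gained peaks, and their median fold enrichment over local background, 2.42, was below the 3.29 of all gained peaks. The median gap from a gained peak to the nearest empty vector peak was 2651 bp, and 7 of 47 lay within 1 kb of one. Of the 47, 25 touched the gene's own body, 17 touched the body of another gene and 1, at Stx1a, lay within 1 kb of an end of the gene itself.

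**Figure D2:**
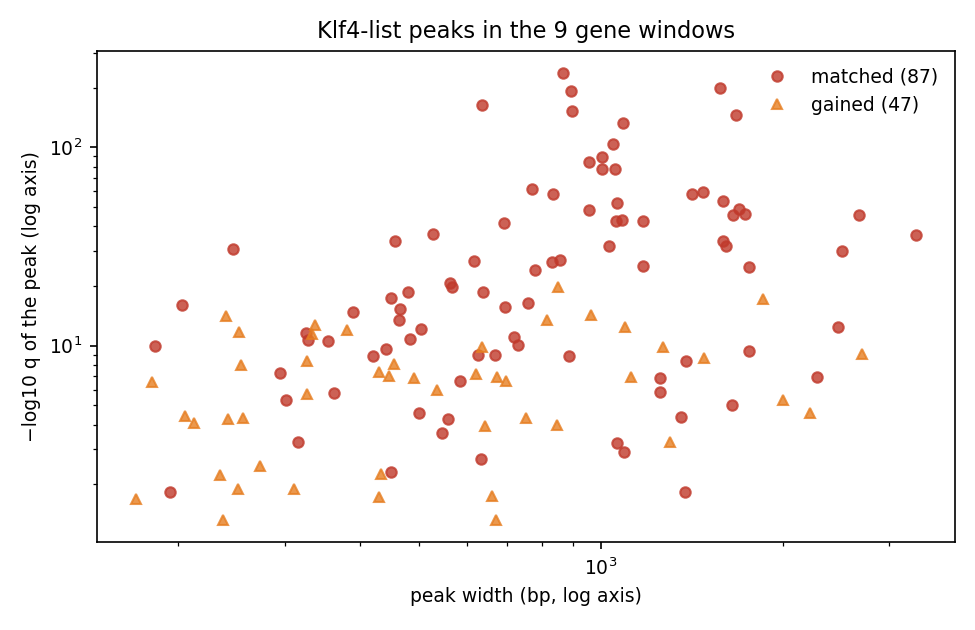
Width (bp) and −log10 q, both on log axes, of the 134 Klf4-list peaks in the 9 windows. Circles are the 87 matched peaks and triangles the 47 gained ones. Gained peaks stop at a −log10 q of 19.7, while matched peaks reach 237.

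Snap25 encodes the SNARE of the plasma membrane that botulinum toxin A cuts, and its window held no other protein-coding gene. The gene lies on chromosome 2, 136713439 to 136782428. The empty vector list had 7 peaks there, covering 5147 bp, and the Klf4 list 5, covering 5490 bp (log2 ratio 0.09). Its strongest peak was not at a gene end but inside the gene, at 136753363 to 136754101, with a −log10 q of 70.7, and at 136753352 to 136754120 with Klf4, with 61.7. The pair had nearly the same borders. The 3 lost peaks lay in the gene body, and the strongest of them, 136720359 to 136720619, had a −log10 q of 13.6. The single gained peak had a −log10 q of 1.90. Matched peaks were wider with Klf4 by 1033 bp in sum, which outweighed the 941 bp in lost peaks.

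Stx1a, on chromosome 5 from 135023482 to 135051100, encodes syntaxin 1A, the partner of SNAP-25 in the plasma membrane. Coverage in its window was 5352 bp in 8 peaks with the empty vector and 12873 bp in 12 peaks with Klf4, a log2 ratio of 1.19 (percentile 94.9 of all genes). The gene body alone was covered over 3.69% with the empty vector and 21.6% with Klf4. Most of the difference thus lay inside the gene, 4952 of 7521 bp. The widest gained peak, 135048698 to 135050556 (1859 bp, −log10 q 17.2), ended 544 bp before the downstream end of the gene. Another peak inside the gene went from 188 bp with the empty vector (135040936 to 135041123, −log10 q 2.45) to 2468 bp with Klf4 (135040272 to 135042739, −log10 q 12.5). The start peak had a −log10 q of 46.3 and 42.9, and was 787 and 1083 bp wide. All 5 gained peaks had a −log10 q of at least 5, from 5.99 to 17.2. The strongest peak of the window, with a −log10 q of 248 and 198, lay at the neighbouring gene Abhd11 and had its start at 135008574 in both lists.

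Vamp2 encodes the granule SNARE, also called synaptobrevin. Its window, around chromosome 11, 69088528 to 69092381, had 11 empty vector peaks, all of them matched. They covered 11145 bp, and 14 Klf4 peaks covered 10836 bp (log2 ratio −0.04). The peak over the lower-coordinate end ran from 69088066 to 69089688 with the empty vector (−log10 q 53.4) and from 69088210 to 69089900 with Klf4 (48.9). The 3 gained peaks were 252 to 326 bp wide, and 2 of them lay in the body of the next gene, Per1, a component of the circadian clock. The end of Per1 also held the strongest peak of any window here, rank 151 with the empty vector and 317 with Klf4.

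Syt4 encodes a synaptotagmin that lacks normal calcium binding and is known to change the calcium sensitivity of insulin release as beta cells mature. Its gene lies on chromosome 18, 31437808 to 31447415, with no other protein-coding gene in the window. Each list had 6 peaks, which covered 3959 bp (empty vector) and 3736 bp (Klf4), a log2 ratio of −0.07. The peak at the higher-coordinate end was the strongest, 31446858 to 31447679 with a −log10 q of 61.4, and 31446775 to 31447609 with 57.9. Of the other matched peaks, 1 just outside that end was narrower with Klf4, 389 bp against 1011 bp. The one farthest outside it was wider with Klf4, 1094 bp against 765 bp. The gained peak, 31433693 to 31434328, had a −log10 q of 9.81, and the lost peak 1.96. They lay 2651 bp from each other, outside the lower-coordinate end.

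Syt7 encodes a calcium sensor of high affinity that acts in insulin and glucagon release. With 20 peaks and 18162 bp with the empty vector, and 29 peaks and 26589 bp with Klf4 (log2 ratio 0.54), its window on chromosome 19 (gene at 10388802 to 10453181) had the most covered bp of the 9 in both lists. The gene body was covered over 15.3% and 25.03%. It held 7 of the 10 gained peaks, among them 10432170 to 10434170 (2001 bp, −log10 q 5.35) and 10397671 to 10398521 (851 bp, −log10 q 19.7), the strongest gained peak in any of the 9 windows. Matched peaks also changed shape there: 1 empty vector peak of 2033 bp, 10401062 to 10403094, was matched by a pair of Klf4 peaks of 729 and 328 bp, and a 393 bp peak near the higher end was matched by one of 2277 bp. The peak at the lower end was 1361 and 1418 bp wide, with a −log10 q of 77.0 and 58.1.

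Rims2 encodes a RIM scaffold that binds Rab3 and helps to prepare granules for release, and mice without it have impaired insulin secretion. It is the longest of the 9 genes, on chromosome 15 from 39198286 to 39684372, and no other protein-coding gene lies in its window. Peaks were sparse in its body, covering 2.45% with the empty vector and 2.58% with Klf4. The window had 17 peaks over 15011 bp and 18 peaks over 15486 bp (log2 ratio 0.04). Under this near-equal sum, 5 empty vector peaks were lost (2201 bp) and 6 Klf4 peaks gained (2633 bp). The strongest lost peak, 39590003 to 39590231, had a −log10 q of 13.5, and the strongest gained peak, 39422945 to 39423399, 8.10. Its end peak was one of the widest, 2698 bp (empty vector) and 2679 bp (Klf4) wide, and was the strongest of the window, with a −log10 q of 53.0 and 45.5.

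Unc13a encodes Munc13-1, which opens syntaxin so that SNARE bundles can form. The gene lies on chromosome 8, 71624125 to 71671774, on the minus strand. It had 12 peaks covering 8412 bp with the empty vector and 21 peaks covering 19767 bp with Klf4, a log2 ratio of 1.19 (percentile 94.8 of all genes), and it had the most gained peaks of the 9, 12 of 21. The gene body was covered over 10.6% and 26.1%. Gained peaks made up 11430 bp, and 7 of them lay in the body. The widest were 71652910 to 71655610 (2701 bp, −log10 q 9.08) and 71638830 to 71641050 (2221 bp, −log10 q 4.59). The strongest, 71693722 to 71694536 (815 bp, −log10 q 13.4), lay over another gene, B3gnt3. The 3 lost peaks were all weak, with a −log10 q of 2.45 or less. At the start the peaks ran from 71670418 to 71672116 with the empty vector (−log10 q 57.5) and from 71670292 to 71671943 with Klf4 (45.6).

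**Figure D3:**
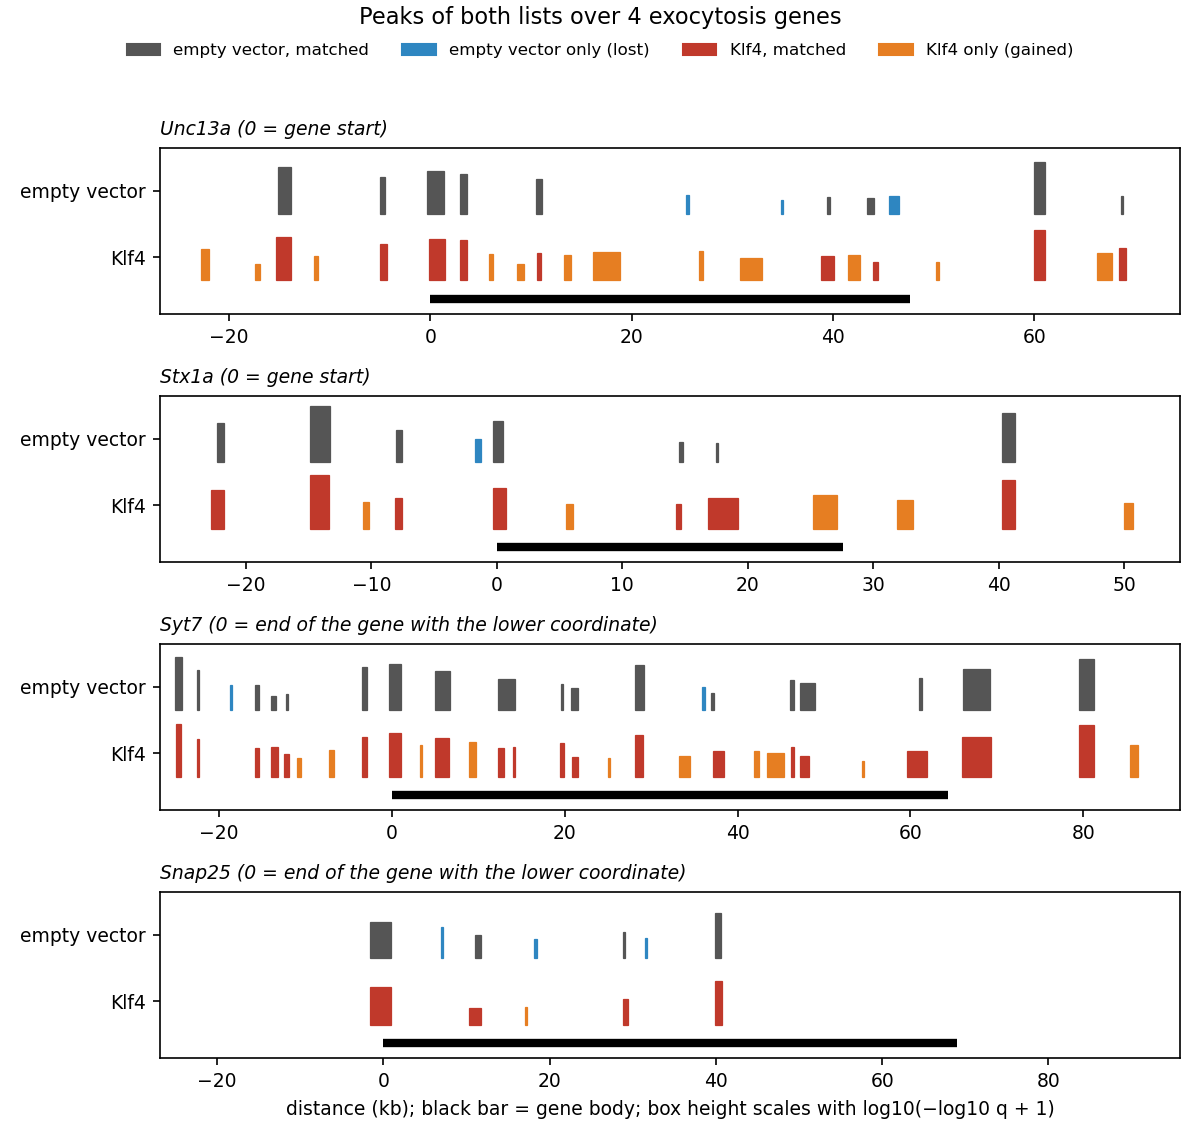
Peaks over Unc13a, Stx1a, Syt7 and Snap25 by distance (kb) from the gene start, or from the lower-coordinate end for Syt7 and Snap25; the black bar is the gene body. Box width is peak width and box height scales with log10(−log10 q + 1) of the peak in its own list. Gained peaks (orange) lie along the bodies and flanks of Unc13a, Stx1a and Syt7, 12, 5 and 10 of them, and Snap25 has 1; the tall peaks at 0 are present in both rows of all 4 genes.

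Rab3a encodes the Rab GTPase that RIM binds on the granule. The gene is short, at chromosome 8, 70754703 to 70758608, 865517 bp from Unc13a on the same chromosome. Its window had 8 peaks covering 6098 bp with the empty vector and 12 peaks covering 9158 bp with Klf4 (log2 ratio 0.55). All 8 were matched and the 4 gained peaks lay outside the gene, whose own body was covered over 795 and 733 bp. The start peak ran from 70754405 to 70755497 and from 70754431 to 70755435, over both starts in the table. The widest gained peak, 70773041 to 70774138 (1098 bp, −log10 q 12.4), lay in the neighbouring Pik3r2, and a matched peak in Pde4c was 548 bp wide in the empty vector list and 1759 bp wide in the Klf4 list (70729492 to 70731250).

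Rab27a encodes the Rab GTPase that docks insulin granules and carries melanosomes in pigment cells. All of its 12 empty vector peaks, 8900 bp, were matched, and Klf4 had 17 peaks over 10312 bp (log2 ratio 0.20, percentile 49.6). The gene lies on chromosome 9, 73044810 to 73097623, and its start peak had nearly the same borders in both lists, 73043960 to 73045557 (−log10 q 61.9) and 73043952 to 73045542 (53.9). Each list had a row of peaks through the body, 9 and 11 with the start peak. The 5 gained peaks were short, 170 to 380 bp, and the strongest, 73070993 to 73071329, had a −log10 q of 12.7.

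**Figure D4:**
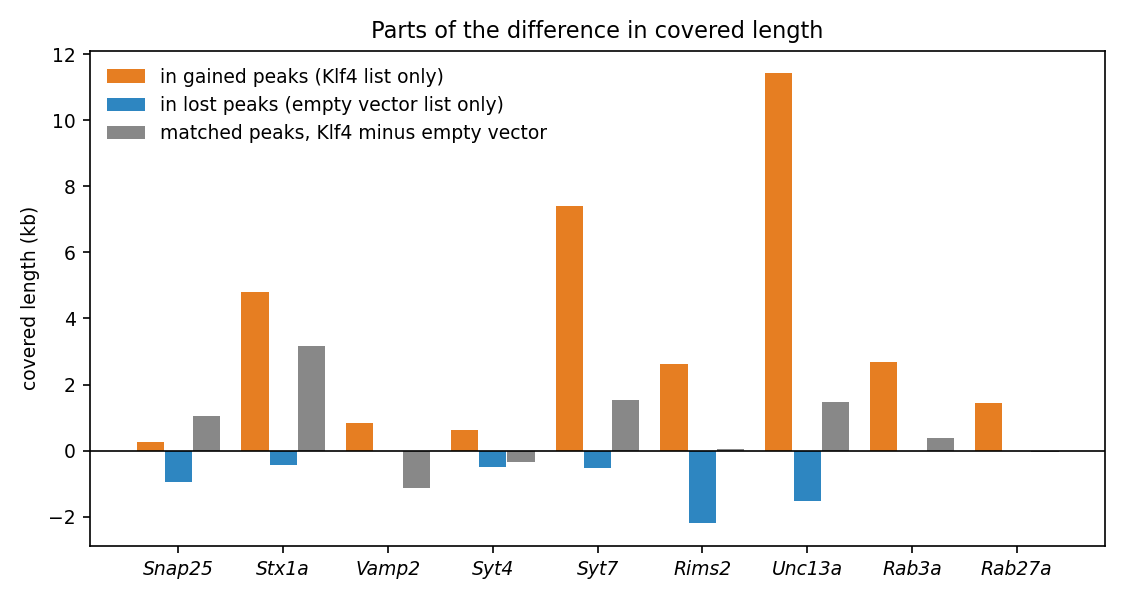
Covered length (kb) in gained peaks (orange, upward), in lost peaks (blue, drawn downward) and the Klf4 minus empty vector difference in matched peaks (grey) for each gene. The 3 add up to the difference in covered length. Unc13a has 11430 bp in gained peaks, Syt7 7410 bp and Stx1a 4802 bp, and Stx1a has 3159 bp more in matched peaks.

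The difference at Stx1a and Unc13a changed with the peaks counted. With peaks of −log10 q of at least 5 in both lists, their log2 ratios were 1.45 and 1.39, and they were again the 2 genes past the 1.5-fold limit. At 10 or more, Stx1a was still past it at 1.04, while Unc13a was within it at 0.34. At 20 or more, the log2 ratios were 0.25 for Stx1a and −0.05 for Unc13a, and no gene was past the limit upward. Strength limits moved all genes as well: the share past 1.5-fold was 20.2% at 5, 13.8% at 10 and 6.71% at 20. With both lists held to the same length, the top 20000 peaks by −log10 p, the log2 ratios were 0.25 for Stx1a and 0.06 for Unc13a, both within the limit, and 5.73% of all genes were past it upward. Read depth is not known, and its part in these values was not tested.

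The 3 genes with no other protein-coding gene in their windows (Snap25, Syt4 and Rims2) had log2 ratios of 0.09, −0.07 and 0.04. The 4 with the highest ratios had 2 to 5 other genes in theirs, 4 at Stx1a, 5 at Unc13a, 5 at Rab3a and 2 at Syt7. Vamp2 with 2 and Rab27a with 4 had −0.04 and 0.20. The same order held over all genes up to 5 neighbours: the median log2 ratio was 0 for 4528 genes with no other gene in the window, 0.20 for 11401 with 1 to 2 and 0.37 for 5178 with 3 to 5, but 0.28 for 776 with 6 or more. The share past 1.5-fold was 15.3%, 22.2%, 31.2% and 23.5% in that order. This split was chosen after the values had been seen, and its part in the results was not tested.

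The rest of the release machinery was read from a list of 79 other genes in 6 groups, all found in the annotation. Of these, 22 (27.8%) were past the 1.5-fold limit upward on the scale with 500 bp added and none downward, against the 23.0% and 1.54% of all genes. Without the added bp it was 24 of the 78 with an empty vector peak (30.8%), against 28.8% of all such genes. Their median log2 ratio was 0.27. Gained peaks were 348 of 944 (36.9%) and lost peaks 149 of 740 (20.1%), against 36.7% and 18.8% of the whole lists. By these counts the list lay close to all genes. The lowest log2 ratio was that of Exoc4 (−0.45), an exocyst subunit. For the SNARE proteins and for the regulators of SNARE proteins the count past the limit is not reported here. The median log2 ratio of the 11 SNARE proteins was 0.11, below the 0.21 of all genes, and 22 of their 74 Klf4 peaks (29.7%) were gained, against 36.7% of the whole list. Vamp7, 1 of the 11, had no peak in either list and so a log2 ratio of 0. The median of the 12 regulators was 0.40, above the 0.21 of all genes, and 50 of their 125 Klf4 peaks (40.0%) were gained, against 36.7%.

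Among the regulators of SNARE proteins, Stxbp2 (2415 bp in the empty vector list, 6445 bp in the Klf4 list), Cplx1 (2459 and 4836 bp), Cplx4 (1259 and 2178 bp) and Napa (5316 and 8304 bp) were past the limit upward. Complexins, encoded by the Cplx genes, clamp and promote SNARE bundles, and Napa encodes a protein that helps to take used bundles apart. Of the 12 synaptotagmin and Doc2 genes listed as calcium sensors, 4 (33.3%, against 23.0% of all genes) were past it. These were Syt3, Syt5, Syt6 and Syt8, with log2 ratios of 0.64, 0.79, 0.84 and 1.23. Syt6 had no other gene in its window.

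In the group of priming and active zone proteins 6 of 17 (35.3%, against 23.0% of all genes) were past the limit: Rims4 (log2 ratio 1.21), Unc13d (1.02), Ppfia3 (0.82), Bsn (0.77), Ppfia1 (0.77) and Ppfia4 (0.59). Of the relatives of Rims2 and Unc13a in this group, Rims4 and Unc13d were thus past the limit, and Rims1, Rims3, Unc13b and Unc13c within it. Of 19 small GTPases and effectors 5 (26.3%, near the 23.0% of all genes) were past it, Sytl1 (1.17), Myrip (0.74), Rab3d (0.69), Sytl3 (0.67) and Rab37 (0.67), where Sytl1 and Myrip bind Rab27 on vesicles. Rab3b, Rab3c and Rab27b were within it. In the exocyst, which tethers vesicles, it was 1 of 8 (12.5%), Exoc7 (0.64). The groups are small, and no difference between a group and all genes was tested.

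**Figure D5:**
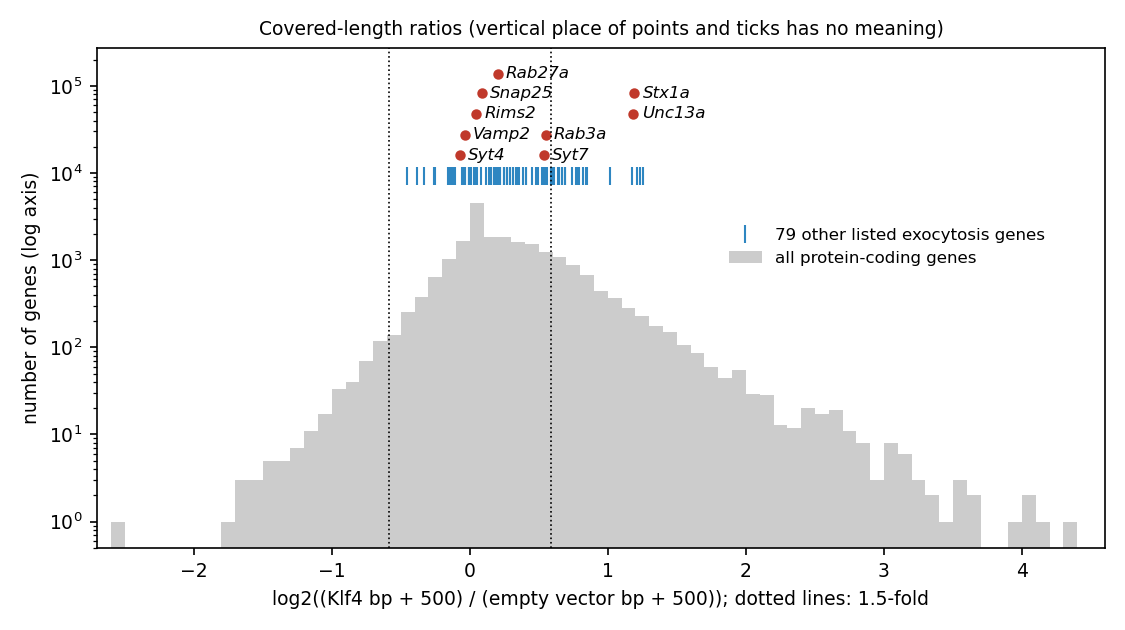
Number of protein-coding genes (log axis) by log2 ratio of covered length in bins of 0.1, with the 9 genes (red points) and the 79 other listed genes (blue ticks) placed by their ratio. Dotted lines mark 1.5-fold. Stx1a and Unc13a lie at 1.19, right of the upper line, and the other 7 genes lie between the lines.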

How the data were processed

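ATAC-seq of MIN6 cells gave 2 peak lists, 1 for each plasmid, described as merged over 4 libraries. The submitters' processing notes name FastQC, Bowtie2, MACS2, DiffBind and the build mm10. Versions, read filters, the transposase shift and whether merging came before peak calling are not given in the sources used here. A broad peak merges enriched stretches that lie close together, and its values are means across it. The authors deposited, peak by peak, a fold enrichment (a ratio to local background) and −log10 of the p-value and q-value, used here to describe and rank peaks within their own list. The limits on −log10 q put the same value to both lists, which need not mean the same strength in each. The weakest deposited q-values were 0.0963 (empty vector) and 0.0997 (Klf4). How many weak peaks pass depends on depth and on signal to noise.

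Peaks on chromosomes 1 to 19, X and Y were used, and 165 and 188 elsewhere were left out. Genes, their coordinates and promoters are RefSeq's for GRCm38.p6, of which mm10 is another name. A peak counted for a window when it overlapped it, and covered length was clipped at the window's border. Named are the 9 genes, peaks at their ends, their strongest or widest peaks and stronger or wider gained and lost peaks, and listed genes past 1.5-fold, of which some are not reported here. The planned check at gene starts used either gene end where the tables give no strand. The genes and lists were chosen with earlier results of these data known. Alternatives were windows of 10 and 50 kb, limits on strength and width, 100 bp added and stricter overlap. Limits of 10 and 20 on −log10 q, the gene body alone and the ratio with no bp added were added after seeing the data. The steps were tested on simulated data. The scripts ran under Python 3.11.15 with pandas 2.3.3, numpy 2.4.6, matplotlib 3.10.9 and scipy 1.17.1.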

Additional observations from a re-analysis of the deposited data

How the results depend on the processing

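No paired analysis was possible because each group has 1 merged list and no value per library, and leaving out replicates was not run for the same reason. A share counted as moved outside its Wilson interval, a median when it changes by more than 0.1 and a count when it changes by more than 1.5 times. The median log2 ratio of the 9 genes was 0.35 for peaks of at least 500 bp, 0.014 with the top 20000 peaks, 0.043 at a −log10 q of 10 or more and −0.019 at 20, where it changed sign. Over all genes it was 0.13, 0, 0.025 and 0. That of the 79 listed genes was 0.023 with the top 20000 peaks and 0.044 at 20. Of the 9 genes, 1 was past the limit upward under the 20000-peak limit (5.73% of all genes) and at 10 (13.8%), and 0 at 20 (6.71%). Downward, 1 was past it with the top 20000 peaks (3.95% of all genes), Rims2 at −0.70, and 1 at 20 (4.69%), Syt4 at −1.07. Unc13a was at −0.047 at 20. Snap25 was past the limit upward with the top 20000 peaks (1.61) and Syt7 over the gene body alone (0.68). The gained share was 5.71% with the top 20000 peaks (12.7% of the whole list), 21.4% at 10 (27.1%), 4.76% at 20 (16.4%), 44.0% when 50% of the peak had to be overlapped (43.1%) and 47.8% with 50% of both (47.5%). Of empty vector peaks 8.45% were lost under a limit of 5 (16.3% of the whole list), 8.33% with the top 20000 peaks (12.7%) and 30.7% with 50% of both peaks (32.6%). The cause of these shifts was not tested. Of 60 summary values under alternatives 41 stayed within the limits given. Of 90 values of single genes 80 kept their side of the 1.5-fold limit, among them all under windows of 10 and 50 kb.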
